A study of Mus musculus with 2 samples.

Results

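Sall1, Sall3, Mef2a, Mef2c, Maf, Spi1, Irf8, Runx1 and Cebpa encode transcription factors that build and hold the identity of microglia and other macrophages. The 9 genes were taken by symbol from the 55357 genes listed in the deposited files, and each symbol matched a single row. The cells had been sorted for CD45 and CD11b out of cerebral cortices of mice 8 weeks of age. Msn knockout mice, which lack moesin, a protein that ties the plasma membrane to cortical actin, were set against wild-type mice. Each genotype gave 1 single-cell library of 3′ RNA tags, made from the pooled cortices of 5 to 6 mice. The knockouts were C57BL/6 mice, per the series design. Neither the wild-type strain, nor the sex, nor which part of Msn was deleted is stated in the sources read here. With 1 library per genotype, genotype and library cannot be told apart, and no difference between the libraries below has a replicate check or a test.

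Spi1 encodes PU.1, the ETS family factor without which macrophages and microglia do not form, and Irf8, Runx1 and Cebpa act beside it in the myeloid lineage. Irf8 binds DNA mostly together with a partner such as PU.1, Runx1 is a factor of blood stem cells and early myeloid cells, and Cebpa drives myeloid progenitors and the growth of macrophages. Mef2a and Mef2c are MADS-box factors whose binding motif is common at microglial enhancers. Maf encodes c-Maf, a factor of mature tissue macrophages. The zinc finger factor Sall1 is, within the immune cells of the mouse brain, a hallmark of microglia. Sall3 is a relative of Sall1 in the same family.

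Of all barcodes, 7573 of 9038 in the knockout library and 5577 of 5842 in the wild-type library had at least 500 genes and at most 10% mitochondrially encoded UMIs (unique molecular identifiers, each marking 1 captured RNA molecule). Kept barcodes had a median of 5455 UMIs in the knockout library and 7178 UMIs in the wild-type library. Only 13 barcode sequences occurred in both libraries. Cells with a UMI of both P2ry12 and Tmem119 were taken as microglia, cells with Ace or Ly6c2 as monocytes, and cells with both Mrc1 and Pf4 as border macrophages, the macrophages of the meninges and vessel walls. Cells that passed more than 1 gate, 1232 in the knockout and 303 in the wild-type library, entered no class. This left 4481 knockout and 4972 wild-type microglia, 658 and 54 monocytes, and 131 and 24 border macrophages. The wild-type monocytes and border macrophages were thus few, and their summed UMIs came to 386775 and 114451.

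The gated classes carried their own markers. All 11 microglia markers had UMIs in gated microglia, summing to 28829 CPM in the knockout and 28635 CPM in the wild-type library, against 1207 and 1619 CPM in monocytes. CPM here means UMIs of a gene per 1000000 UMIs of the class. All 9 monocyte markers had UMIs in monocytes (7913 and 10357 CPM), and all 8 border macrophage markers in border macrophages (9715 and 8746 CPM). Each list includes its gate genes, so part of each sum was fixed by the gate. Without the gate genes, 7 monocyte markers summed to 6629 and 8180 CPM in monocytes. Likewise 6 border macrophage markers summed to 3347 and 3460 CPM in border macrophages. The microglia sum without P2ry12 and Tmem119 was not computed. Microglia markers still reached 5661 CPM in knockout and 4255 CPM in wild-type border macrophages. Msn itself stood at 20.5 CPM (19.0 to 22.0) in knockout and 320.1 CPM (316 to 325) in wild-type microglia. These and all later intervals are 95% and cover counting error only.

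The promoters of 6 of the 9 members were matched in RefSeq's promoter table (build GRCm38.p6) and placed on GRCm39 by exact sequence, and 3 are shown because their genes carry the results below. Capitals mark matches, on either strand, to the PU box GAGGAA or to TTCNNNGAA, the form of a STAT element. The windows lie before the start of Irf8 on chromosome 8 (chr8:121462847-121463095, plus strand), Mef2a on chromosome 7 (chr7:67022607-67022856, minus strand) and Sall1 on chromosome 8 (chr8:89770824-89771040, minus strand).
Irf8: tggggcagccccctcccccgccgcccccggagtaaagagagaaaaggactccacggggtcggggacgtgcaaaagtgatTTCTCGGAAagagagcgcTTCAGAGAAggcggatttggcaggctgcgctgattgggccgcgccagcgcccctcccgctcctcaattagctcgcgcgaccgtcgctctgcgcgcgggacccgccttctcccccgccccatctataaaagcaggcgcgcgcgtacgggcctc
Mef2a: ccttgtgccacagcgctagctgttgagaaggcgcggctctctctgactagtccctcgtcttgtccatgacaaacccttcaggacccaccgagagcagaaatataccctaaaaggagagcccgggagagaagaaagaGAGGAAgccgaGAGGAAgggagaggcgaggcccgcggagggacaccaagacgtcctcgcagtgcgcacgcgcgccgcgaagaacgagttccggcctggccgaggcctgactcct
Sall1: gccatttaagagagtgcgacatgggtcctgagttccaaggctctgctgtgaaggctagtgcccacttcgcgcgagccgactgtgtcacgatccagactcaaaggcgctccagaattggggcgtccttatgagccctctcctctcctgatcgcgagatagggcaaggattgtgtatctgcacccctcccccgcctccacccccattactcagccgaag
Irf8 had 2 matches to TTCNNNGAA, which occurred in 7.02% of all 32851 windows of 250 bases before a start. Mef2a had 2 PU boxes, a motif found in 23.3% of these windows. The Sall1 window held neither, nor an IRF element (GAAA and GAAA with 2 bases between them, in 2.98% of windows), a MEF2 element (CTA and TAG with 4 bases between them, in 3.202%) or the RUNX letters TGTGGT (in 14.05%). These matches describe the letters only. No promoter of Maf or Spi1 was matched, and no sequence of Sall3 is shown.

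Sall1 and Sall3 were genes of the microglia gate in both libraries. Sall1 (ENSMUSG00000031665, GRCm39, chromosome 8, 89753863 to 89770823) stood at 152 CPM in knockout and 324 CPM in wild-type microglia. In monocytes it stood at 11.1 CPM (41 UMIs) in the knockout and 15.5 CPM (6 UMIs) in the wild-type library. The level in microglia was 13.7-fold that in monocytes in the knockout library and 20.9-fold in the wild-type library. Border macrophages held 27.2 CPM (13 UMIs) and 8.74 CPM (1 UMI), which is 5.58-fold below microglia in the knockout library. Sall3 (ENSMUSG00000024565, chromosome 18, 81009591 to 81030631) followed Sall1, at 88.3 CPM in knockout and 201 CPM in wild-type microglia. Monocytes held 14 and 4 Sall3 UMIs, and border macrophages 6 and 1, so in these 2 classes its level rests on few molecules. Cells that passed no gate held 101.4 CPM (155 UMIs) in the knockout and 144 CPM (56 UMIs) in the wild-type library. In cells thinned to 2000 UMIs each, 25.4% of knockout and 47.6% of wild-type microglia had a Sall1 UMI, against 2.44% and 1.92% of monocytes (1 cell of 52 in the wild-type library). Free RNA, mixed droplets and low expression were not told apart as sources of the monocyte shares.

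**Figure D1:**
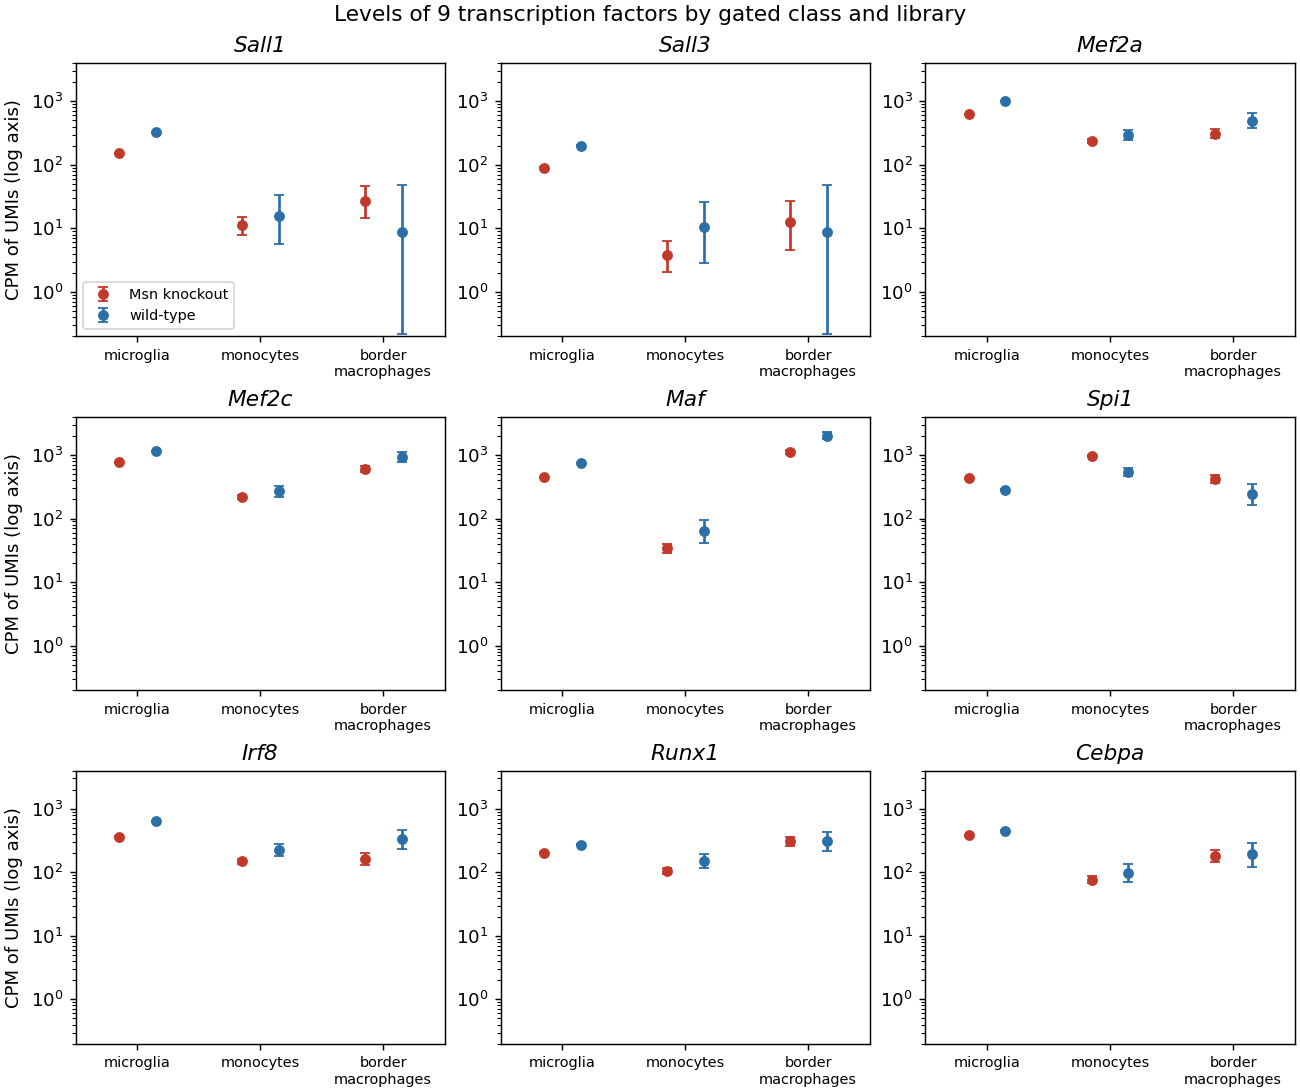
Level of each member in CPM of UMIs on a log axis, for microglia, monocytes and border macrophages, with knockout (red) left of wild-type (blue); bars are exact 95% Poisson intervals, and those of Sall1 and Sall3 in wild-type border macrophages run to the lower edge. Sall1 and Sall3 were highest in microglia, Maf in border macrophages (1118 and 2018 CPM) and Spi1 in monocytes (965 and 540 CPM).

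Maf was the member that marked border macrophages. Maf (ENSMUSG00000055435, chromosome 8, 116409632 to 116434579) stood at 1118 CPM in knockout and 2018 CPM in wild-type border macrophages, at 448 and 746 CPM in microglia, and at 33.9 and 64.6 CPM in monocytes. The order of the 3 classes was therefore the same in both libraries, and no neighbouring intervals overlapped. The level in border macrophages was 2.497-fold that in microglia in the knockout library and 2.71-fold in the wild-type library. Against monocytes it was 33.0-fold and 31.2-fold. Maf was the only one of the 9 members at least 2-fold higher in border macrophages than in microglia in either library, where 8.97% (knockout) and 13.4% (wild-type) of all genes at 10 CPM or more in either class passed that size. In the other direction, 5 members in the knockout library (14.2% of genes) and 4 in the wild-type library (25.5% of genes) were at least 2-fold lower in border macrophages than in microglia.

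Spi1 ran the other way, with its highest level in monocytes. Spi1 (ENSMUSG00000002111, chromosome 2, 90912562 to 90946101) stood at 431 CPM in knockout and 286 CPM in wild-type microglia. Border macrophages held 419 and 245 CPM, and monocytes 965 and 540 CPM. Within each library the intervals of microglia and border macrophages overlapped, so these 2 classes were not told apart, while monocytes stood above both. Microglia lay 2.24-fold below monocytes in the knockout and 1.89-fold below in the wild-type library. It was the only member at least 2-fold lower in microglia than in monocytes in the knockout library (15.5% of all genes), and no member passed that size in the wild-type library (16% of all genes). Among monocytes, cells gated by Ace alone, a gene of patrolling monocytes, held 1047 CPM of Spi1 in the knockout and 762 CPM in the wild-type library. Cells gated by Ly6c2 alone, a gene of classical monocytes, held 688 and 423 CPM.

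Irf8, Mef2a, Mef2c and Cebpa were higher in microglia than in monocytes in both libraries. Together with Sall1, Sall3 and Maf, 7 of 9 members passed 2-fold in each library, where 28.7% (knockout) and 32.6% (wild-type) of all genes did. Irf8 (ENSMUSG00000041515, chromosome 8, 121463096 to 121485659) stood at 362 and 640 CPM in knockout and wild-type microglia, at 149 and 222 CPM in monocytes, and at 163 and 332 CPM in border macrophages. Its intervals in monocytes and border macrophages overlapped in both libraries. Cebpa (ENSMUSG00000034957, chromosome 7, 34818718 to 34821353) stood at 382 and 455 CPM in microglia, 180 and 192 CPM in border macrophages, and 76.8 and 98.2 CPM in monocytes. Cebpa was also lower in Ace-gated than in Ly6c2-gated monocytes, at 55.5 against 127 CPM in the knockout library and 55.5 against 138 CPM in the wild-type library, the last on 7 and 27 UMIs.

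The MEF2 genes differed in how far border macrophages lay from microglia. Mef2c (ENSMUSG00000005583, chromosome 13, 83652064 to 83815555) stood at 763 and 1146 CPM in knockout and wild-type microglia, 599 and 935 CPM in border macrophages, and 222 and 271 CPM in monocytes. Border macrophages were 1.27-fold and 1.23-fold below microglia. Mef2a (ENSMUSG00000030557, chromosome 7, 66880911 to 67022606) stood at 632 and 1013 CPM in microglia, 308 and 498 CPM in border macrophages, and 236 and 295 CPM in monocytes, so that border macrophages were 2.05-fold and 2.03-fold below microglia. Whether the 2 paralogs differ in this ratio was not tested. Runx1 (ENSMUSG00000022952, chromosome 16, 92398354 to 92623037) stood at 308 and 315 CPM in border macrophages, 201 and 273 CPM in microglia, and 104 and 153 CPM in monocytes. The Runx1 intervals of border macrophages and microglia overlapped in the wild-type library and were apart in the knockout library. Between border macrophages and monocytes, 6 members were at least 2-fold higher in border macrophages and 1, Spi1, lower in the knockout library, where 25.3% and 15% of genes were. In the wild-type library 3 members, Maf, Mef2c and Runx1, were higher and Spi1 was lower, where 27.8% and 23.7% of genes were.

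Between the libraries, Sall1 and Sall3 were lower and Spi1 was higher in knockout microglia. Genes were taken as measured where either library reached 10 CPM. The median measured gene in microglia lay at a log2 CPM ratio of knockout over wild-type of −0.29, so ratios below are given relative to that median unless the CPM scale is named. A gene was called higher or lower at 1.5-fold or more on this relative scale. Sall1 had a relative log2 ratio of −0.80 (−0.84 to −0.75) and Sall3 of −0.89 (−0.95 to −0.84). Spi1 had a relative log2 ratio of 0.89 (0.86 to 0.92), and its level was 1.51-fold higher on the CPM scale as well. The other 6 members lay within 1.5-fold. Of the 9 members 2 were lower, where 12.4% of 8726 measured genes were, and 1 was higher, where 15% of them were. Among the 1876 genes reaching 100 CPM, 8.21% were lower and 27.8% higher.

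Irf8, Maf, Mef2a and Mef2c lay below the median gene without reaching 1.5-fold. Their relative log2 ratios were −0.53, −0.44, −0.39 and −0.29. On the CPM scale these 4 genes were past 1.5-fold too, so that 6 of 9 members were lower, where 30.3% of measured genes were, and 1 was higher, where 4.65% were. Runx1 lay at −0.15 and Cebpa at 0.04, closest to the median gene. The median of the 9 members was −0.39 on the relative scale.

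**Figure D2:**
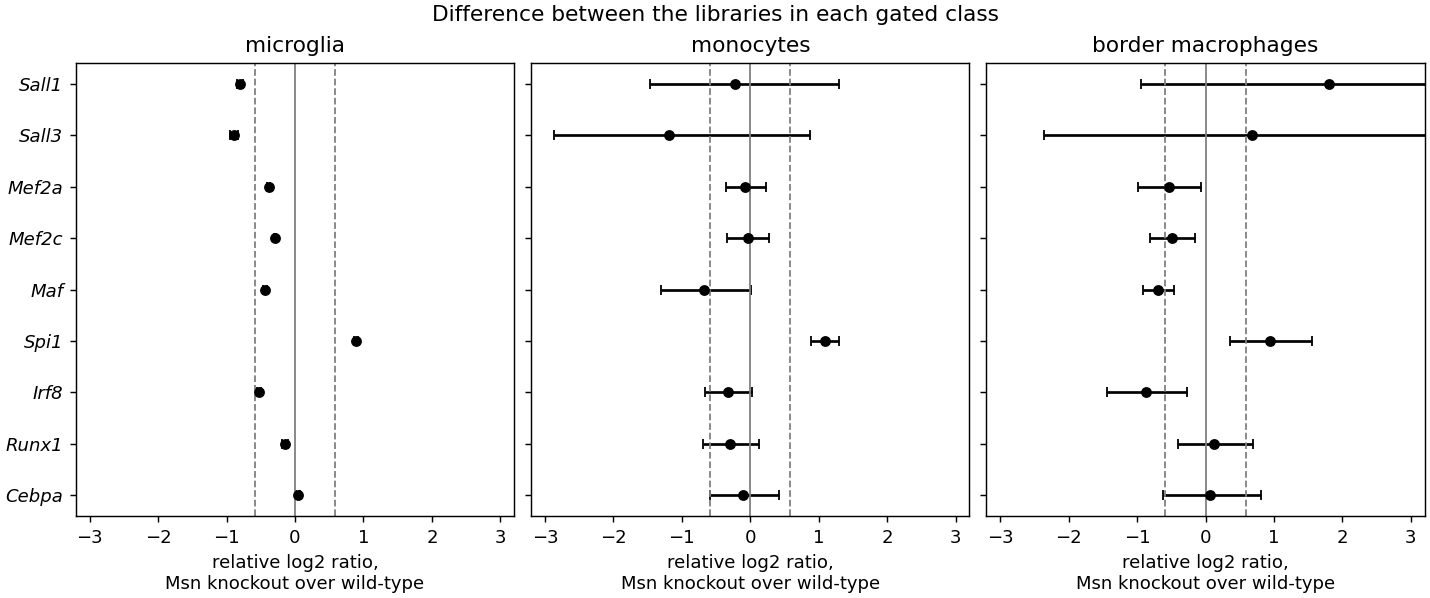
Relative log2 ratio of knockout over wild-type for each member in the 3 gated classes, with exact conditional 95% intervals (counting error only); dashed lines mark 1.5-fold, and the intervals of Sall1 and Sall3 in border macrophages leave the axis. Spi1 lay at 0.89, 1.09 and 0.93 in microglia, monocytes and border macrophages.

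Spi1 was higher in the knockout library in all 3 classes. The relative log2 ratio was 1.09 (0.89 to 1.30) in monocytes and 0.93 (0.36 to 1.56) in border macrophages, which held 200 and 28 Spi1 UMIs. The knockout and wild-type intervals of the Spi1 level did not overlap in any of the 3 classes. In the split monocytes the ratio was 0.75 (0.46 to 1.06) in Ace-gated and 0.95 (0.61 to 1.29) in Ly6c2-gated cells. On the CPM scale the Ace-gated difference was 1.37-fold and no longer past 1.5-fold. Neutrophil markers summed to 8973 CPM (5 of 5 with UMIs) in knockout and 1601 CPM (4 of 5, with Ly6g at 0) in wild-type Ly6c2-gated cells, and to 2206 and 820 CPM in all monocytes. Choroid plexus and ependyma markers summed to 1225 CPM (2 of 3, with Tmem212 at 0) in knockout Ace-gated cells and had no UMI in wild-type ones. The part of these other cell types in the monocyte ratios was not tested. Monocyte markers other than the gate genes had UMIs in microglia for 7 of 7 genes, summing to 97.2 CPM in the knockout and 44.2 CPM in the wild-type library, with Ace and Ly6c2 at 0 by the gate. These sums are 1.47% and 0.54% of the level in monocytes. Nr4a1, also an early response gene, alone gave 57.4 and 32.6 CPM of them. The shares therefore need not measure monocyte RNA. Monocyte RNA at those shares would carry 14.1 and 2.92 CPM of Spi1. Border macrophage markers other than the gate genes (6 of 6 with UMIs) summed to 23.6 and 6.24 CPM, which would carry 2.95 and 0.44 CPM of Spi1.

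In monocytes, 1 of 9 members was higher, Spi1, where 20.3% of measured genes were, and 2 were lower, Maf and Sall3, where 22.6% were. Maf lay at −0.68 (−1.31 to 0.00) on 125 knockout and 25 wild-type UMIs, and Sall3 at −1.19 (−2.86 to 0.87) on 14 and 4 UMIs, so both intervals include 0. Among genes reaching 100 CPM, 27.8% were higher and 10.3% lower. On the CPM scale the members' counts were the same, where 10.9% of measured genes were higher and 32.9% lower. Irf8 lay at −0.33 (−0.66 to 0.02), Runx1 at −0.30, and Mef2a, Mef2c and Cebpa between −0.10 and −0.04. Sall1 lay at −0.23 (−1.47 to 1.30), which neither shows nor excludes the difference seen in microglia.

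In border macrophages, Maf and Irf8 were lower in the knockout library and Spi1 was higher. Maf lay at −0.69 (−0.92 to −0.46) and Irf8 at −0.86 (−1.44 to −0.26). These are 2 of 9 members lower, where 29.5% of measured genes were, and with Sall1 and Sall3 there were 3 higher, where 29.4% were. The Sall1 and Sall3 calls each rest on 1 wild-type UMI, with intervals of −0.94 to 7.21 and −2.36 to 6.21, and give no direction. Mef2a lay at −0.54 (−0.99 to −0.07), Mef2c at −0.48 (−0.81 to −0.15), Runx1 at 0.13 and Cebpa at 0.07. Among genes reaching 100 CPM, 21.9% were lower and 26.6% higher. On the CPM scale 4 members were lower (Maf, Irf8, Mef2a and Mef2c), where 35.5% of measured genes were, and 2 were higher, where 24.1% were.

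Gene span moved with the difference between the libraries. In microglia the median log2 CPM ratio was 0.09 for 2007 measured genes spanning under 10 kb, −0.15 for 2897 genes of 10 to 30 kb, −0.48 for 2775 genes of 30 to 100 kb, and −0.67 for 1036 genes of 100 kb or more. The submitters' protocols do not say whether intronic reads were counted. Mef2a, Mef2c and Runx1 span 142, 163 and 225 kb, and relative to genes of their own span they lay at −0.01, 0.08 and 0.23. Sall1, Sall3, Maf and Irf8 span 17.0, 21.0, 24.9 and 22.6 kb, and lay at −0.94, −1.04, −0.59 and −0.68, all past 1.5-fold. Spi1, of 33.5 kb, lay at 1.08, and Cebpa, of 2.64 kb, at −0.34. On this scale 4 of 9 members were lower and 1 was higher. The share of all measured genes past 1.5-fold on this scale was not computed.

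**Figure D3:**
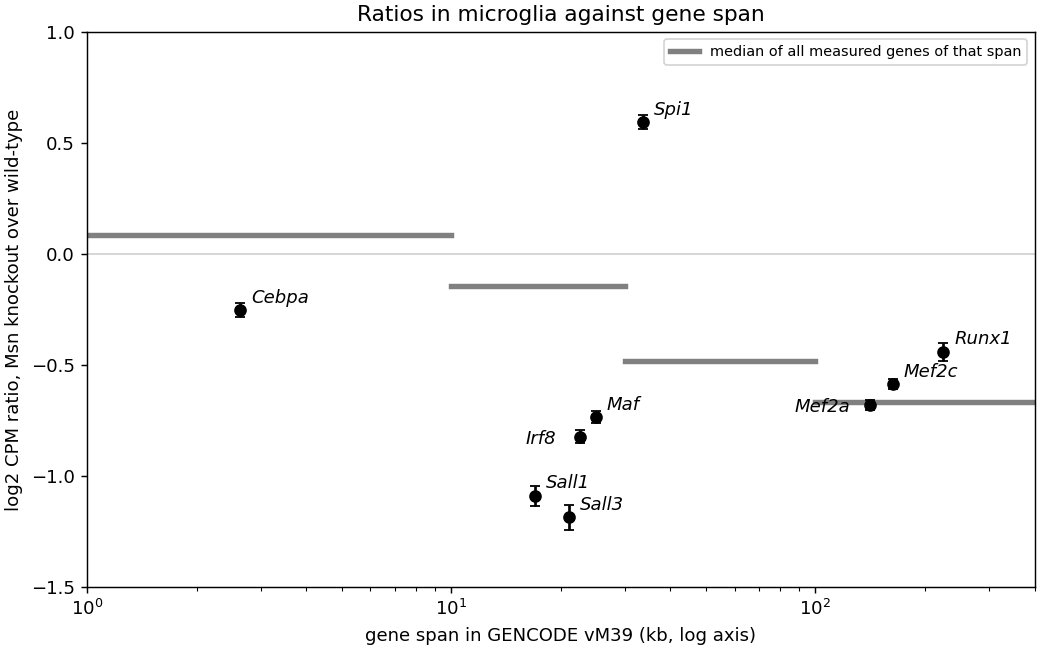
Log2 CPM ratio of knockout over wild-type in microglia against gene span (log axis), with exact 95% intervals; grey bars are medians of all measured genes in each span class. Mef2a and Mef2c lie near the bar at −0.67, Sall1, Sall3, Maf and Irf8 below the bar at −0.15, and Spi1 above the bar at −0.48.

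Other genes lie within 8 of the 9 members' spans, Irf8 being the exception, and most run on the other strand. Whether the counting used strand is not given in the sources used here. On the strand of Mef2a, inside its span, lie Gm44667, at 43.5 CPM in knockout and 124 CPM in wild-type microglia, and Gm44668, at 16.5 and 51.3 CPM. Reads there could be split between these genes and Mef2a, so the Mef2a level is uncertain to that extent. The opposite-strand gene Gm15655 at Maf held 2.71 and 15.5 CPM, and the other overlapping genes with rows in the files held under 5 CPM in both libraries.

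The ratios in microglia were much the same at every depth. In cells of under 4000 UMIs, from 4000 to under 8000, from 8000 to under 16000, and of 16000 or more, Sall1 lay at −0.70, −0.79, −0.79 and −0.78. Spi1 lay at 0.95, 0.86, 0.91 and 0.86 in the same order, and Irf8 at −0.61, −0.49, −0.51 and −0.49. Gated knockout microglia held more cells in the lowest range (21.5%, against 9.55% of wild-type microglia) and fewer in the highest (9.15%, against 21.6%). These shares leave out the cells that passed more than 1 gate, 1232 in the knockout and 303 in the wild-type library. Those cells were deep, with medians of 14521 and 21462 UMIs, and their microglia markers summed to 24151 and 26607.5 CPM. The part of the gate in these depth shares was not tested.

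**Figure D4:**
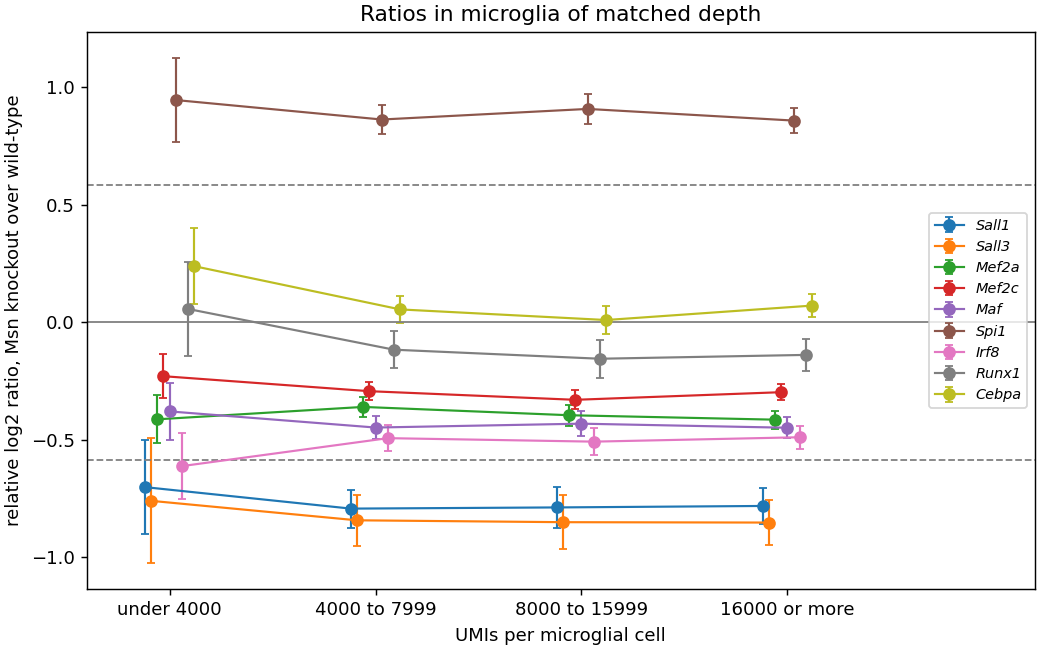
Relative log2 ratio of knockout over wild-type in microglia, by UMIs per cell, with exact conditional 95% intervals; dashed lines mark 1.5-fold. Sall1 and Sall3 stay below the lower line (−0.70 to −0.85) and Spi1 above the upper line (0.86 to 0.95) in each depth range.

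Signs of handling and RNA quality also differed between the libraries. A Hspa1a or Hspa1b UMI, from heat shock genes, was present in 65.1% of knockout and 44.1% of wild-type microglia. Mitochondrially encoded genes made up 0.503% and 1.44% of microglial UMIs, and the nuclear RNA Neat1 stood at 134 and 398 CPM. In microglia without a Hspa1a or Hspa1b UMI, Sall1 lay at −0.74, Sall3 at −0.90, Irf8 at −0.56 and Spi1 at 0.92. With microglia limited to at most 5% mitochondrially encoded UMIs, Sall1 lay at −0.80 and Spi1 at 0.89, the values over all microglia. That limit lies far above the median cell, at 0.47% in knockout and 1.40% in wild-type microglia. It therefore cannot even out the mitochondrial difference, whose part in the results was not tested. With mitochondrially encoded and ribosomal protein genes left out of the totals, and no median subtracted, they lay at −1.07 and 0.61. The part of Neat1 in the results was not tested. Neutrophil markers (5 of 5 with UMIs) summed to 180 CPM in knockout and 14.2 CPM in wild-type microglia, erythroid markers (5 of 5) to 464 and 89.5 CPM, and lymphoid markers to 95.1 CPM (8 of 8) and 42.2 CPM (5 of 8, with Cd3e, Ncr1 and Nkg7 at 0), and their part was not tested.

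Seen per cell, fewer knockout than wild-type microglia had a UMI of 8 of the 9 members, and more had one of Spi1. The share of all measured genes found in fewer knockout microglia was not computed. The median measured gene in microglia lay at a log2 CPM ratio of −0.29. After thinning to 2000 UMIs, with 4138 knockout and 4836 wild-type cells left, Spi1 was found in 57.5% (56.0 to 59.0) of knockout and 44.0% (42.6 to 45.4) of wild-type microglia. Irf8 was found in 49.2% (47.7 to 50.8) and 69.1% (67.8 to 70.4), and Sall3 in 15.4% (14.3 to 16.5) and 30.7% (29.4 to 32.0). Mef2c was the member with the highest share in both, at 75.1% and 87.1%. Cebpa, within 1.5-fold by level, still had intervals apart, at 48.2% (46.7 to 49.7) and 54.4% (53.0 to 55.8). These shares are on the scale of equal UMIs per cell, which does not remove the shift of the median gene. Without thinning, Spi1 was found in 85.3% of knockout and 84.1% of wild-type microglia, and Sall1 in 56.2% and 84.8%, at medians of 5581 and 7212.5 UMIs. Among 70 thinned lymphoid cells of the knockout library, which should lack PU.1 unless they are B cells, 8.57% (3.21 to 17.7) had a Spi1 UMI, at a median of 4401 UMIs.

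**Figure D5:**
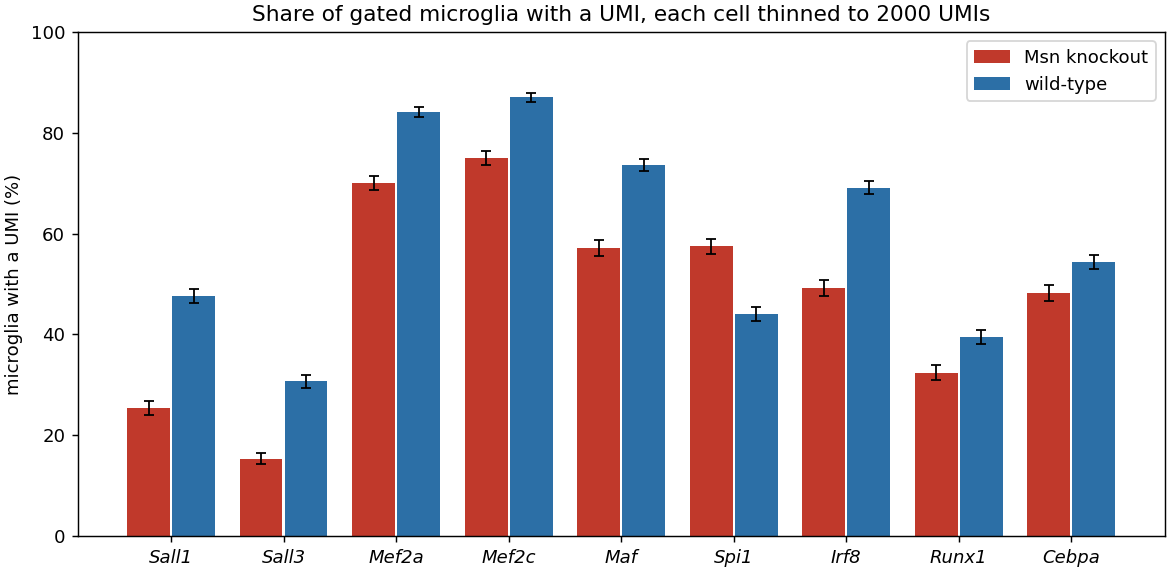
Share of gated microglia with at least 1 UMI of each member after thinning each cell to 2000 UMIs, knockout (red) left of wild-type (blue), with exact binomial 95% intervals. Spi1 alone has the higher bar in the knockout library (57.5%, against 44.0%).

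A thinned microglial cell showed a median of 4 of the 9 members in the knockout and 5 in the wild-type library, against 2 and 3 in monocytes and 3 and 4 in border macrophages. Both Sall genes were found together in 4.28% of knockout and 15.03% of wild-type microglia. The variance of the thinned counts over cells, divided by their mean, was lowest for Spi1, at 1.04 in knockout and 0.99 in wild-type microglia, where 1 is the value of pure counting. It was highest for Cebpa, at 1.31 and 1.36. Sall1 lay at 1.06 and 1.03, close to that value in both.

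Among relatives and partners of the members, Cebpb and Irf7 were higher in knockout microglia. Of 16 measured genes of 25 in this list, 3 were higher, none lower and 13 within 1.5-fold, with a median of 0.20. Of all measured genes, 15% were higher and 12.4% lower. On the CPM scale 2 of the 16 were higher and 1 lower, with a median of −0.09. There 4.65% of all measured genes were higher and 30.3% lower. Cebpb, an inducible C/EBP of inflammatory responses, stood at 475 CPM in knockout and 252 CPM in wild-type microglia (1.21, 1.18 to 1.24). Irf7, a factor of the interferon response, stood at 21.6 and 9.18 CPM (1.53, 1.37 to 1.69). The part of monocyte RNA in the microglial values of Cebpb and Irf7 was not tested. Between classes, Mafg was at least 2-fold higher in microglia than in monocytes in both libraries. Cebpb (2539 and 1862 CPM in monocytes), Irf1 and Irf7 (658 and 421 CPM in monocytes) were at least 2-fold lower. Sall2 stood at 6.49 and 11.2 CPM in microglia, and Sall4 had no UMI in any of the 3 classes.

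Of 20 other myeloid transcription factors, 15 were measured in microglia, of which Nr4a1 was higher and Zeb2 lower in the knockout library. The median over the 15 was −0.12, where 15% of all measured genes were higher and 12.4% lower. On the CPM scale 1 of the 15 was higher and 6 lower, with a median of −0.41. There 4.65% of all measured genes were higher and 30.3% lower. Zeb2, a zinc finger factor that keeps macrophage identity in several tissues, stood at 332 CPM in knockout and 665 CPM in wild-type microglia (−0.71, −0.74 to −0.68). The Zeb2 ratio was not set against genes of the same span. The same gene stood at 371 and 701 CPM in monocytes and at 320 and 821 CPM in border macrophages. Nr4a1 is an orphan nuclear receptor needed by patrolling monocytes and also an early response gene. It stood at 57.4 and 32.6 CPM in microglia (1.11) and at 1177 and 760 CPM in monocytes. The part of monocyte RNA in the microglial Nr4a1 values was not tested. Bhlhe41, Fli1 and Ets1 were at least 2-fold higher in microglia than in monocytes in both libraries, and Nr4a1 and Bhlhe40 lower. Ets1, Id2 and Ikzf1 were higher in microglia than in border macrophages by that size, and Ets2 lower.

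Textbook targets of PU.1 were mostly within 1.5-fold between the libraries on the relative scale. Of 7 measured in microglia, Cybb was higher and 6 lay within, with a median of −0.03, where 15% of all measured genes were higher and 12.4% lower. On the CPM scale Cybb was higher, Csf3r and Tlr4 were lower and 4 lay within, with a median of −0.33, where 4.65% of measured genes were higher and 30.3% lower. Csf1r, the receptor for colony-stimulating factor on which microglia depend, stood at 2743 CPM in knockout and 3437 CPM in wild-type microglia (−0.03), and Itgam, the gene of the sorted protein CD11b, at 473 and 591 CPM (−0.03). Csf3r lay at −0.49, Tlr4 at −0.30, Csf2ra at −0.25 and Fcgr1 at 0.23. Cybb, a subunit of the phagocyte NADPH oxidase, was low in microglia, at 15.4 and 7.23 CPM (1.39), and stood at 1265 and 2267 CPM in monocytes. Monocyte markers in microglia stood at 1.47% (knockout) and 0.54% (wild-type) of their level in monocytes. Nr4a1 alone gave 57.4 and 32.6 CPM of these marker sums, so the shares need not measure monocyte RNA. The part of monocyte RNA in the microglial Cybb values was not tested.

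The genes most like each member were sought over 8 groups of cells (microglia, both monocyte gates and border macrophages in each library), by Pearson's r of log2(CPM + 1) among 10402 genes. The groups share 2 libraries and some hold few cells, so r is only a description. Irf2bpl, Gpr155 and Senp2 were most like Sall1 (r of 0.99, 0.98 and 0.98), and Dip2b, Fam102b and Gm17056 most like Sall3. Akt1, Cyba and Cox20 were most like Spi1 (0.98, 0.97 and 0.97), and Zfp292, Trio and Nek7 most like Irf8. For Mef2a they were Ccnl1, Mtf2 and Btbd9, for Mef2c Gsk3b, Serinc3 and Ccdc47, and for Cebpa Naalad2, Scamp2 and Pld1. Mxd4, Abca1 and Lmo2 led for Maf, and Maf itself led for Runx1 (0.97), before Nisch and Frmd4b. Spi1 had a negative r with each of the other 8 members, from −0.16 with Sall1 to −0.90 with Maf. The share of the 10402 genes with a negative r to Spi1 was not computed.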

How the data were processed

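Single-cell RNA libraries of CD45+ CD11b+ cortical cells were made on 10x Genomics 3′ v2 chemistry, per the labels' protocols. The deposited files give raw UMI counts for each gene in each barcode, which the authors made with Cell Ranger 7.0.0, per the file headers (6.0 per the labels' protocols), on GRCm39, per the submitters' processing notes. The protocols name a filter at 500 genes, which the deposited counts had not passed.

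Groups came from the genotype label. UMIs were summed per gated class and library and divided by the class total (CPM). Monocytes and border macrophages with 3 or more lymphoid marker UMIs were left out. Genes reaching 10 CPM in either of the 2 groups compared were measured. Calls were made by size, 1.5-fold between libraries and 2-fold between classes. No test was made, since each genotype has 1 library. Intervals are exact Poisson, binomial or conditional. Doublets were not called, and cells of 2 gates were set aside instead. The scripts (Python 3.11.15, numpy 2.4.6, scipy 1.17.1) were tested on simulated counts. Of the 55357 gene identifiers, 54749 (98.9%) were in GENCODE vM39, which gave coordinates. All members are named, with the 3 genes most like each, listed relatives and other factors past either size at 50 CPM or more, and all measured PU.1 targets. Sall2, Sall4 and the microglial values of Irf7 are named besides, and 1 relative is counted but not reported here. The members, gates and lists were chosen with earlier results of these data known.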

Additional observations from a re-analysis of the deposited data

Results flagged for a closer look

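Spi1 was also high in knockout barcodes outside the 3 classes, which the comparisons do not use. Cells that passed more than 1 gate held 440 CPM of Spi1 in the knockout library, against 290 CPM in the wild-type library. Cells that passed no gate, with medians of 973 and 1283.5 UMIs, held 393 CPM in the knockout and 247 CPM in the wild-type library.

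The 71 lymphoid cells of the knockout library, a class with no cell in the wild-type library, held members above the limit that a count of 0 allows (8.44 CPM). Irf8 stood at 495 CPM (425 to 574) there, against 362 CPM in microglia of that library. Mef2c stood at 259 CPM, Runx1 at 141 CPM and Mef2a at 124 CPM. Spi1 stood at 56.3 CPM, Maf at 53.5 CPM and Cebpa at 50.6 CPM. Sall1 and Sall3 had 3 and 2 UMIs.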

How the results depend on the processing

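In microglia, Sall1, Sall3 and Spi1 kept their direction and stayed past 1.5-fold under all 17 alternatives. Spi1 did so in monocytes (0.84 to 1.27) and border macrophages (0.76 to 1.26) too. The log2 ratios in microglia were −1.09 to −0.67, −1.19 to −0.77 and 0.59 to 1.08. Each value is on the scale of its own setting, so these ranges mix scales. Dropping the lymphoid exclusion cannot change microglia, since it applies only to monocytes and border macrophages. Settings that change only the totals, the scaling or the gene floor move every member by the same amount, except the same-span scale. Irf8 passed 1.5-fold in microglia under 6 of 17, Maf under 4, Mef2a under 3 and Mef2c under 1, and Cebpa changed sign under 8. For the counts of members below, shares of all measured genes were computed only in the main setting and on the CPM scale. In microglia, 12.4% and 30.3% of measured genes were lower there. Under the other settings, whether a count follows a shift of all genes was not tested. The number of members lower in microglia was 2, and became 6 on the CPM scale, 5 without mitochondrially encoded and ribosomal protein genes in the totals or relative to genes at 100 CPM, 4 relative to genes of the same span, and 3 with median-of-ratios scaling or genes at 30 CPM (the same-span and 100 CPM settings were chosen after seeing the data, as was leaving out cells with Hspa1a or Hspa1b UMIs).

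In monocytes 2 were lower, and 1 with genes at 30 CPM, no exclusion for lymphoid markers, at least 1000 genes, 4000 to 8000 UMIs or no Hspa1 UMIs, 0 with thinned cells or genes at 100 CPM, and 4 with cells of several gates counted in. In border macrophages 2 were lower, and 4 on the CPM scale, with the reduced totals or with genes at 100 CPM, 5 with thinned cells, 3 with at least 1000 genes or at most 5% mitochondrially encoded UMIs, and 1 with 1 UMI in each library, gates of 2 UMIs or no Hspa1 UMIs. There 3 were higher, and 1 with genes at 30 or 100 CPM, thinned cells or cells of several gates, 4 at 4000 to 8000 UMIs, and 2 on the CPM scale or with reduced totals, gates of 2 UMIs, at least 1000 genes or at most 5% mitochondrially encoded UMIs. Sall1 and Sall3 in border macrophages reversed to −0.78 and −1.07 with cells of several gates, Sall1 to −2 in thinned cells, and Maf in monocytes to 0.10 at 4000 to 8000 UMIs. When counted in, each cell of several gates entered every class whose gate it passed. The cause of these reversals was not tested.

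Counting in cells of several gates put the same cells on both sides of a ratio between classes. It left 0 members past 2-fold between classes in either library, except 1 higher in knockout border macrophages than monocytes. It also turned Sall3 to 0.0374 between wild-type border macrophages and microglia. With gates of 2 UMIs or reduced totals 1 member, Spi1, was lower in wild-type microglia than monocytes. With thinned cells 2 were lower in knockout border macrophages than monocytes, Sall1 (−1.15) having reversed. Without thinning, 0 members had a higher share of knockout microglia with intervals apart, against 1 with it, since the Spi1 intervals then overlapped. No paired analysis was possible because each genotype has 1 library and no test was made. Depth limits Sall1 and Sall3 outside microglia, where wild-type classes held 1 to 6 UMIs.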
